A study of Mus musculus with 60 samples.

Results

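A set of 9 genes that dorsal root ganglion (DRG) neurons are known to switch on or up after axon injury was followed through 16 chromatin peak lists. They were Sprr1a, Csrp3, Ankrd1, Ecel1, Gadd45a, Anxa2, Nfil3, Cebpd and Cebpb, 9 of the 21887 protein-coding genes on the mouse chromosomes covered by the lists. They were chosen by name for their known role, and each was read over its RefSeq gene body and 10 kb on either side, called its window. The question put to the lists was whether the genes known to be silent before axotomy lay in open chromatin, in chromatin with the repressive mark H3K27me3, or in neither.

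The chromatin came from the L4-L6 sciatic DRG of C57BL/6 mice of 6 to 8 weeks, taken 24 hours after surgery. The groups were sciatic nerve axotomy (SNA), which cuts the peripheral branch of the sensory axon, a sham operation on that nerve (Sham), dorsal column axotomy (DCA), which cuts the central branch in the spinal cord, and laminectomy alone (Lam). Each surgery has 1 list for ATAC-seq, in which a transposase cuts accessible DNA, and 1 each for H3K9ac and H3K27ac, marks of active promoters and enhancers, and for H3K27me3. A list pools 3 ATAC samples of 1 mouse each, or 2 ChIP samples of 10 mice each, so no value below has a replicate error and no difference between surgeries could be tested. No group is uninjured tissue without any operation, and "before axotomy" can only be read from Sham and Lam. The ganglion is bulk tissue of neurons, glia and other cells: fewer cells of a type and less signal per cell cannot be told apart, and no RNA was measured here.

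Injury of a peripheral axon is known to start a program in the neuron's nucleus in which transcription factors of the AP-1, ATF and C/EBP families act on effector genes of growth and stress. Some effectors, such as Sprr1a, Csrp3, Ankrd1 and Ecel1, are textbook markers of injured DRG neurons because the uninjured ganglion has next to none of their RNA, while they serve skin, muscle or developing neurons elsewhere. A silent gene can lie in closed chromatin without a mark, be held by the Polycomb proteins that write H3K27me3, or stand open and poised.

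The promoters of the members differ in sequence. The 250 bases before the annotated start site (RefSeq, GRCm38.p6) are printed for the genes on which the motif search turned, 5′ to 3′ on the gene's own strand, with capitals for TATAAA, for the AP-1 motif TGACTCA or its reverse TGAGTCA, and for GGAATG, the core of the TEAD motif. All motifs were searched on both strands.
Sprr1a (chr3:92485882-92486131, minus strand): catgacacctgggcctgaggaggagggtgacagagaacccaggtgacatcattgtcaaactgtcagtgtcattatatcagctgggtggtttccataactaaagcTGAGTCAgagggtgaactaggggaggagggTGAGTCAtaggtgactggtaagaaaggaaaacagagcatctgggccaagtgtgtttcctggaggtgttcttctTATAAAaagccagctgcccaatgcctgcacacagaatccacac
Ankrd1 (chr19:36119845-36120094, minus strand): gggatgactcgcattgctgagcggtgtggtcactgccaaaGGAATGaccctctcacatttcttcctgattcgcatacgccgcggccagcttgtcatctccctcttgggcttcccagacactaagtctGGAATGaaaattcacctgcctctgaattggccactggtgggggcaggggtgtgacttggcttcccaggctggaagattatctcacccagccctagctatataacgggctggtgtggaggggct
Anxa2 (chr9:69453433-69453682, plus strand): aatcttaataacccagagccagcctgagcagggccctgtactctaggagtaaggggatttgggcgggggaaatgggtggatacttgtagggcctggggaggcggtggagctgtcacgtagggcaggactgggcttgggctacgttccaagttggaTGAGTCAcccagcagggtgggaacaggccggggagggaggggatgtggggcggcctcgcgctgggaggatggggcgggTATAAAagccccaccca
Sprr1a, a small proline-rich protein of the skin's cornified envelope that injured neurons make, held 2 AP-1 motifs, at positions -146 to -140 and -116 to -110, where -1 is the last base before the start, and TATAAA at -43 to -38. Anxa2 held 1 AP-1 motif at -95 to -89 and TATAAA at -17 to -12. Among all 21263 promoter windows of this length, 4.06% held the AP-1 motif and 11.6% held TATAAA. Ankrd1 held GGAATG at -210 to -205 and -123 to -118, a motif present in 11.7% of windows. Csrp3 held 2 matches to the C/EBP motif TTGCNNAA, at -219 to -212 and -105 to -98 of its upstream start, and Gadd45a held 1 at -95 to -88 (9.09% of windows). Ecel1 held none of the 7 motifs, which besides these were TGACGTCA (CRE, 1.92% of windows), TTCNNNGAA (STAT, 6.58%) and GGGCGG (SP/KLF, 42.6%). A match is only a run of letters, and a window without one says nothing about the factor.

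The same genes also spanned the range of promoter CG content. The last 150 bases before the start are printed for 4 members with capitals on each CG, because the CG number ran along with the peaks described next.
Ecel1 (chr1:87156357-87156506, minus strand): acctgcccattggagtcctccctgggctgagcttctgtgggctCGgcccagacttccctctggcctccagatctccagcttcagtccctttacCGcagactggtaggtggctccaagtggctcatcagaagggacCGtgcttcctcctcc
Csrp3 (chr7:48848052-48848201, minus strand, upstream start): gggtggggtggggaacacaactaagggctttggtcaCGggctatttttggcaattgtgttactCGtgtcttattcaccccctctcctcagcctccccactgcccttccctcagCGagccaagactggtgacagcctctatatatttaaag
Gadd45a (chr6:67037408-67037557, minus strand): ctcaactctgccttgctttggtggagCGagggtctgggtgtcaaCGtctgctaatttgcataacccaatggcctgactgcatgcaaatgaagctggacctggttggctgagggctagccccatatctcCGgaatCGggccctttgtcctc
Nfil3 (chr13:52981040-52981189, minus strand): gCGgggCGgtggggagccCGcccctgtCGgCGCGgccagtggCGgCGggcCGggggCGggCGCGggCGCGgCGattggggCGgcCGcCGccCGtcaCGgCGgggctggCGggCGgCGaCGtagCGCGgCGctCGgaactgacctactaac
Over the full 250 bases Sprr1a had 0 CG dinucleotides, Ecel1 4, Csrp3 5 at its upstream and 2 at its downstream start, Ankrd1 7, Anxa2 9, Gadd45a 11, Cebpb 41 and Nfil3 43. The median over the 17492 genes with a promoter entry was 10. Sprr1a was therefore among the 6.61% of promoters with no CG at all, and Nfil3 and Cebpb had more than nearly all others, since 99.3% and 98.9% of promoters had at most their number.

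The peaks split the 9 genes into those with no acetylation and those with an open, acetylated start. Sprr1a, Csrp3 and Ecel1 had neither an H3K9ac nor an H3K27ac peak anywhere in their windows in any of the 8 acetylation lists, a state found for 25.9% of all genes. Ankrd1 had a single H3K9ac peak, in DCA. The other members, Gadd45a among them, had ATAC, H3K9ac and H3K27ac peaks at or near the start. A start-site peak here is one within 1 kb of an annotated start (of either gene end for Cebpd). An ATAC start-site peak was present in all 4 surgeries for 5 of 9 members, against 62.1% of all genes, and the corresponding counts were 3 of 9 for H3K9ac (43.2% of genes), 2 of 9 for H3K27ac (32.7%) and 1 of 9 for H3K27me3 (3.4%). No start-site ATAC peak in any list was seen for Sprr1a and Ankrd1, as for 22.9% of genes.

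**Figure D1:**
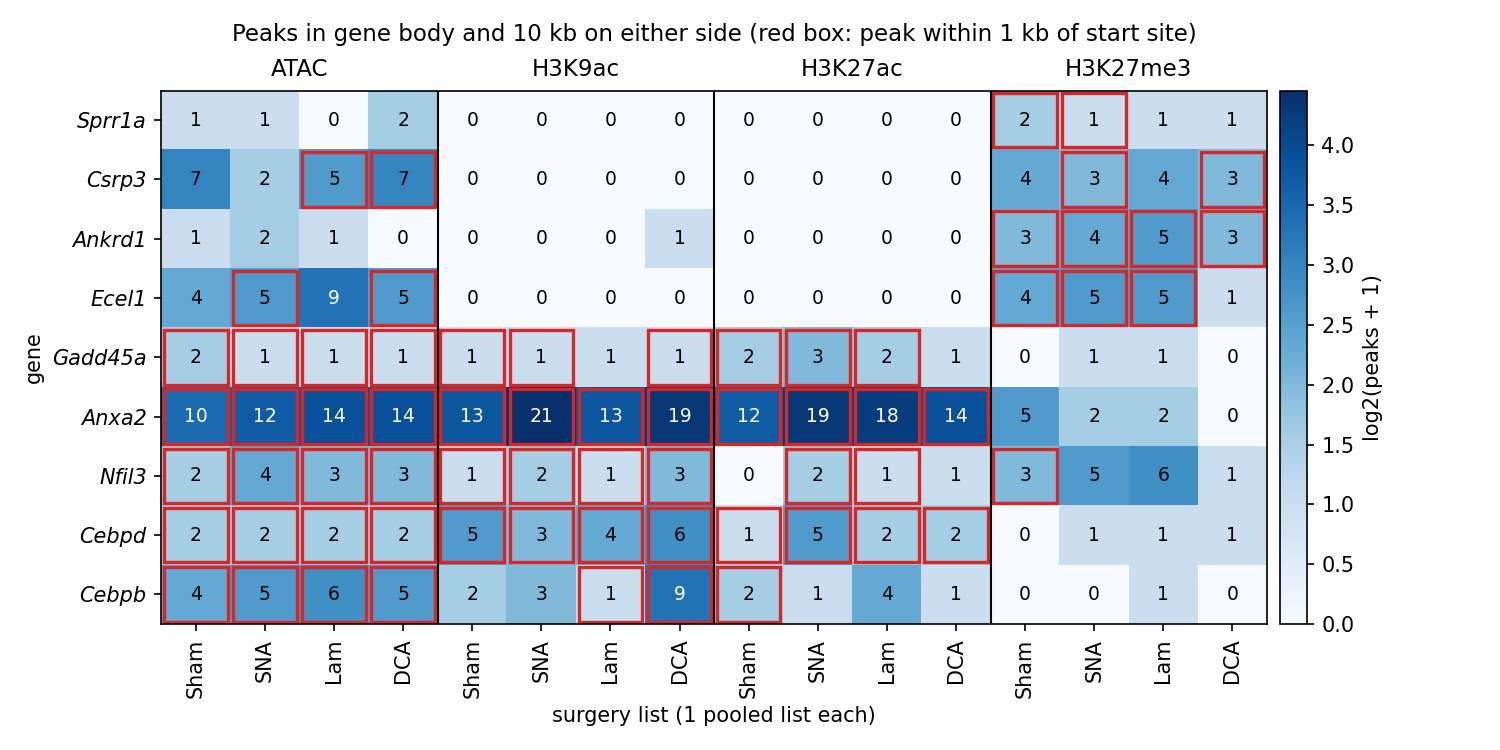
Number of peaks in each member's window (rows) in each of the 16 lists (columns, grouped by assay), printed in the cell and shaded by log2(peaks + 1). Red boxes mark lists with a start-site peak, and the 4 upper genes lack acetylation boxes while Gadd45a and the 4 genes under it have them.

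Sprr1a had no ATAC peak listed within 1 kb of its start in any surgery. Its window held 1 ATAC peak in Sham and 1 in SNA, and 0 in Lam and 2 in DCA. The recurrent one lay inside the 1928 bp gene, centred 1.5 kb past the start at chr3:92484003-92484764, and was listed in Sham, SNA and DCA. In Sham its near edge was 1117 bp from the start, just outside the 1 kb limit. Within 5 kb of the start, or within 1 kb of either gene end, 3 ATAC lists had a peak. The recurrent peak had its strongest listing in SNA, with a fold enrichment of 2.3 over the caller's background and a −log10 p of 6.46, both the authors' values for that peak. H3K27me3 lay over the start in Sham (chr3:92484293-92486270, 1978 bp) and SNA (1139 bp) and not in Lam or DCA, so the mark was listed at the start in an injured and in a control group alike. That pattern of Sham and SNA alone was found for 1.24% of genes. H3K27me3 peaks covered 10.6% of the window in Sham and 5.19% in SNA, and 0.775% in Lam and 0.392% in DCA. The strongest of them, the Sham peak over the start, had a fold of 1.14 and a −log10 p of 0.907.

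Csrp3, the muscle LIM protein, a cytoskeletal protein of striated muscle, had scattered open sites without any acetylation. Its window held 7 ATAC peaks in Sham and 2 in SNA, and 5 in Lam and 7 in DCA, the fewest of all after SNA. Of its 2 annotated starts, the upstream one lay inside an ATAC peak only in DCA (chr7:48847568-48848562, −log10 p 4.06). In Lam the peaks that came within 1 kb of a start did not cover it: the nearer to the upstream start ended 956 bp from it, while a Sham peak at the same place ended 1032 bp away and so fell outside the limit. Start-site ATAC in Lam and DCA alone was found for 0.599% of genes. A stretch 2.6 kb past the upstream start (chr7:48844941-48845970) held a peak in each surgery, but only the wide DCA peak joined them: the SNA peak overlapped neither the Sham nor the Lam peak. The strongest ATAC listing was at 1.2 kb past that start in Sham (chr7:48846755-48847019, fold 2.79, −log10 p 9.91). H3K27me3 numbered 4, 3, 4 and 3 peaks for Sham, SNA, Lam and DCA and covered 7.68%, 6.85%, 12.6% and 3.77% of the window. Its strongest H3K27me3 peak was near the 3′ end in Sham (chr7:48830618-48831176, −log10 p 1.31). Start-site H3K27me3 appeared in SNA and DCA alone (0.503% of genes), 306 bp from the downstream start in SNA and over it in DCA. The window also holds part of the coding gene Zdhhc13.

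Ankrd1, a cardiac ankyrin repeat protein known as a target of YAP and TEAD, was the member with H3K27me3 at its start in all 4 surgeries. Genes without any acetylated start, to which Ankrd1 belongs, had that pattern in 6.79% of cases. The peak over the start was 6534 bp wide in Sham (chr19:36119179-36125712) and 7136 bp in SNA (chr19:36117875-36125010), and 5032 bp in Lam and 1286 bp in DCA. H3K27me3 covered 42.6% of the window in Sham and 39.2% in SNA, and 37.5% in Lam and 13.9% in DCA, above 96.6%, 97.2%, 94.2% and 93.8% of all genes in the same lists. The mark was thus listed over the start both with and without an injury, with its smallest extent in DCA, the smallest list. With lists cut to equal size 3 of the 4 listings remained. Its strongest H3K27me3 peak was upstream of the gene in Lam (chr19:36121183-36121960, −log10 p 0.983). ATAC gave 1 peak in Sham and 2 in SNA, and 1 in Lam and 0 in DCA, none at the start, and none of these regions recurred between surgeries. The strongest, 16.5 kb past the start in Lam (chr19:36103199-36103517, −log10 p 4.98), lay beyond the 3′ end. One site past the 3′ end, at 9.2 kb, was listed as open in SNA (chr19:36110534-36110706) and carried the only acetylation of the window, H3K9ac in DCA (chr19:36110461-36110784, fold 2.98). Rpp30, a coding gene next to Ankrd1, reaches into the window.

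Ecel1, an endopeptidase of the neprilysin family also called damage-induced neuronal endopeptidase, was the member whose start was listed as open after both axotomies and after neither control operation. In SNA 2 ATAC peaks lay at the start (chr1:87155846-87156167 and chr1:87156226-87156531, −log10 p 5.77 and 4.51), and in DCA 1 peak covered it (chr1:87155983-87156582, −log10 p 5.83). In Sham and Lam the nearest peaks lay 1.9 and 2.1 kb inside the gene. The start lies within the long noncoding gene Gm33292, so a peak there belongs to both. The 3′ end of Ecel1 overlaps another noncoding gene, Gm51638. The pattern SNA and DCA alone was found for 1.09% of all genes, and the opposite one, Sham and Lam alone, for 0.48%. Both injury ATAC lists are larger, with 174605 peaks in SNA and 164365 in DCA against 153556 in Sham and 158160 in Lam. The part of list size in these 2 shares was not tested. The Ecel1 listing was kept with lists cut to equal size, with only peaks of q at most 0.05 and with the start inside the peak. It was lost in both injuries when −log10 q had to reach 5. Within 5 kb of the start, or within 1 kb of either gene end, all 4 surgeries had a peak, so the pattern holds only close to the start. Over the whole window the numbers did not follow injury, with 4 ATAC peaks in Sham and 5 in SNA, and 9 in Lam and 5 in DCA. The site open in all 4 surgeries was at the other end of the gene, 14 kb past the start (chr1:87141498-87143299), and held the strongest ATAC listing (SNA, −log10 p 7.29).

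H3K27me3 spread broadly over Ecel1. The peak over the start was 12602 bp wide in Sham (chr1:87146951-87159552) and 10871 bp in Lam (chr1:87148616-87159486). In SNA the nearest one was 2324 bp wide and ended 0.3 kb before the start. That SNA peak covered the outer 5′ end of the RefSeq gene body (chr1:87157085), which lies upstream of the start used here. The DCA list held 1 peak of 271 bp, away from the start. Start-site H3K27me3 in every list but DCA was found for 4.93% of genes. The share of the window covered was 64.6% in Sham and 28.2% in SNA, and 63.3% in Lam and 0.792% in DCA. Both control lists thus covered more of Ecel1 than the list of the matching injury. The median over all genes also went from 3.08% in Sham to 2.0% in SNA and from 3.79% in Lam to 0.0% in DCA, and the DCA list covers 91.4 Mb of the genome against 178.0 Mb in Sham, 173.0 Mb in SNA and 194.0 Mb in Lam. With the H3K27me3 lists cut to equal size, the number of strongest peaks that the DCA list holds, 0 of the 3 start-site listings of Ecel1 remained, so the difference from DCA at the start is not separate from list size. Ecel1 stood above 98.7% of genes in Sham and 94.6% in SNA, and 98.4% in Lam and 59.0% in DCA. The strongest H3K27me3 peak, in SNA (chr1:87151699-87152132), had a −log10 p of 1.07.

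**Figure D2:**
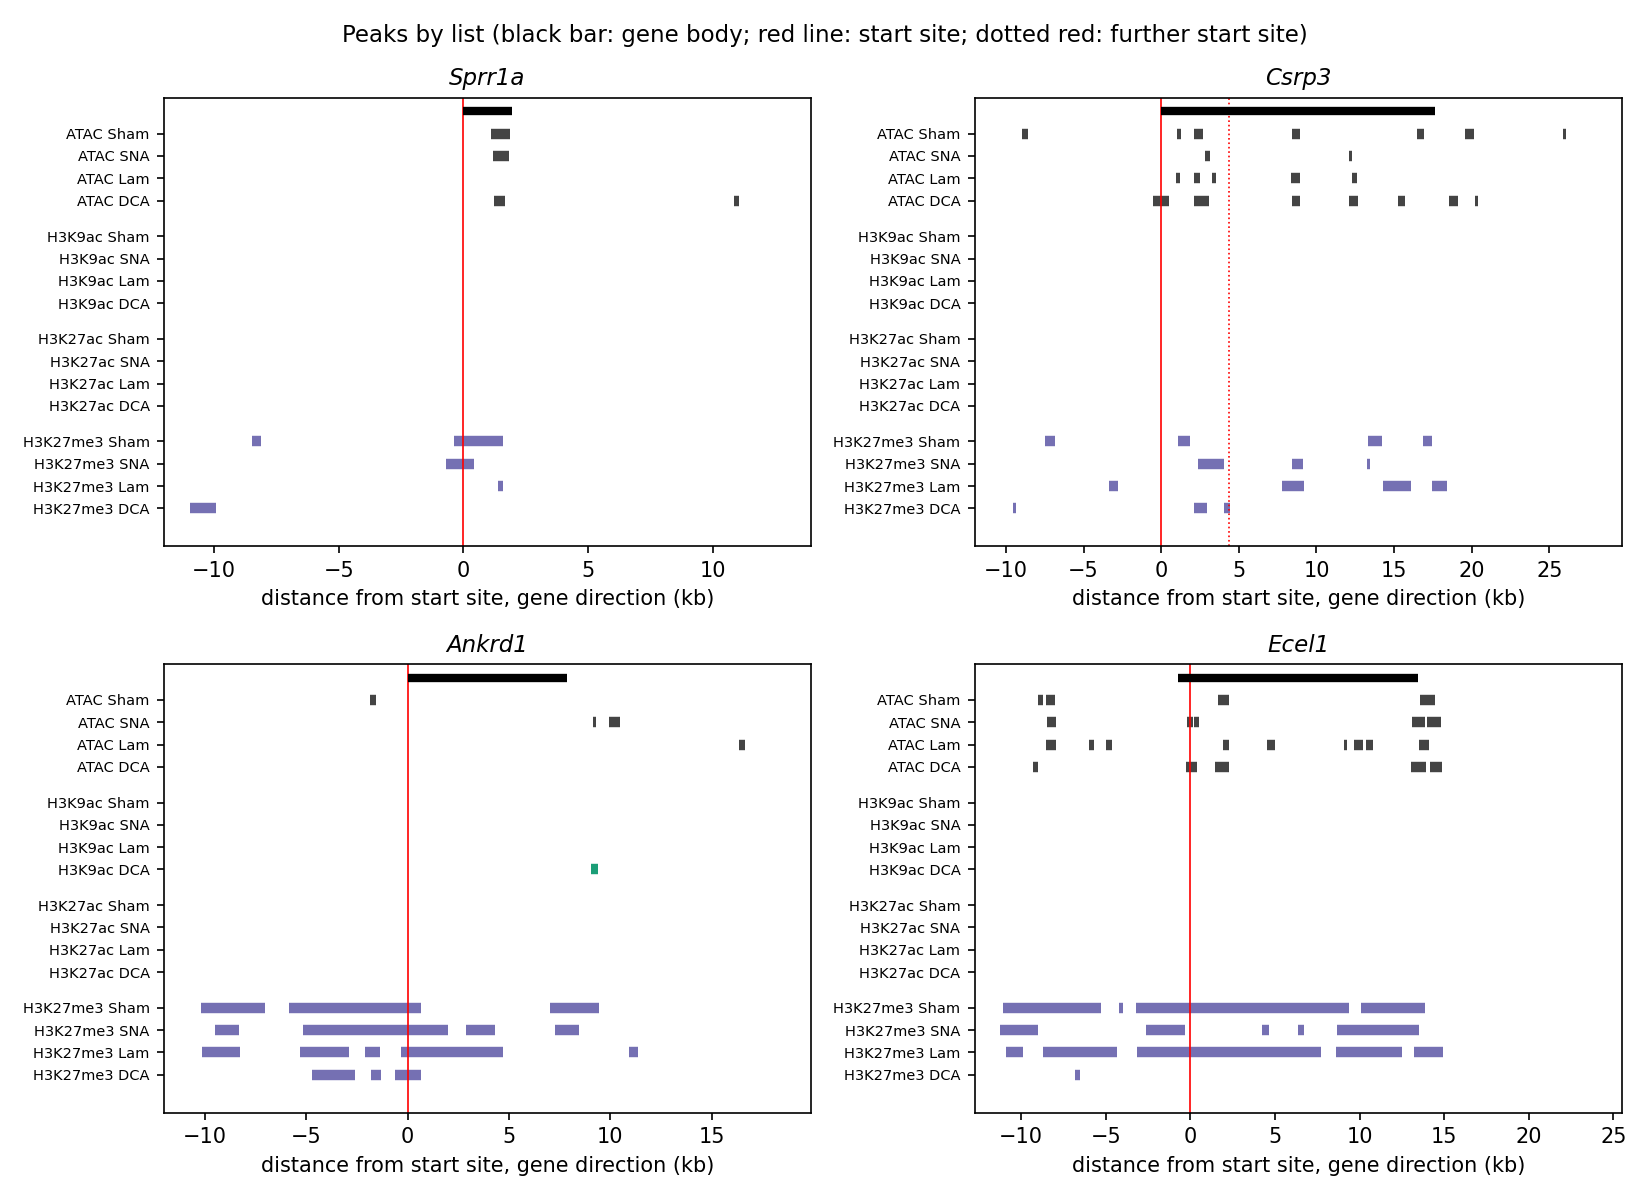
Peaks of the 4 members without acetylated starts, plotted by distance from the start site in kb in the direction of the gene, 1 row per list. The black bar is the gene body, the solid red line the start site and the dotted line the second start of Csrp3. Broad H3K27me3 peaks cross the start of Ankrd1 in all 4 lists and of Ecel1 in Sham and Lam, and ATAC peaks meet the Ecel1 start in SNA and DCA.

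All H3K27me3 values of the members were weak by the authors' own statistics. Sham listed 21 of these peaks, SNA 22, Lam 26 and DCA 10, all with q above 0.05, and the highest −log10 q was 0.205, in Csrp3. The q-value separated little in these lists, since only 0.0478% to 1.31% of all their peaks reached it. Of 12 developmental regulators that are classical Polycomb targets, such as Pax6, Foxa2 and Hoxd13, 0 had a peak with such a q at the start, yet 11 of them in DCA and all 12 in each other list had an H3K27me3 start-site peak, and their windows were covered to a median of 78.4%, 79.0%, 79.8% and 53.4% (Sham, SNA, Lam, DCA). Peak names carry a rank, and of the ranks 1 to 5000 in each H3K27me3 list 34.2% to 53.7% were present in the lists used here. A peak missing from these lists is therefore not shown to be absent, which touches the missing start-site listings of Ecel1 in DCA and of Sprr1a in Lam and DCA. The q values above, of members and Polycomb targets alike, cover only the peaks that are present. By the share of the window covered, Ecel1 and Ankrd1 lay between the median Polycomb target and the median gene in every list, as did Csrp3 and Nfil3. In DCA the share was 3.77% for Csrp3 and 0.792% for Ecel1. Sprr1a and Csrp3 did not exceed 12.6% in any list.

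Genes typical of other tissues gave a further measure. Of 16 such genes, from liver, heart, muscle, skin, lung, pancreas, kidney and blood, 12 had a start-site H3K27me3 peak in Sham and 6 in SNA, and 8 in Lam and 0 in DCA. The median share of their windows under the mark was 21.2%, 3.96%, 22.0% and 0.168%. Their ATAC start-site counts were 8, 9, 8 and 8 of 16. A few were acetylated at the start, with H3K9ac in 1, 1, 1 and 3 cases and H3K27ac in 1 case in each list. In DCA, where none of the 16 had a start-site H3K27me3 peak, Ankrd1 and Csrp3 had one, as did 8.46% of all genes. A start-site H3K27me3 peak in at least 1 list, which Sprr1a, Csrp3, Ankrd1 and Ecel1 all had, was found for 52.3% of genes with no acetylated start, so its presence alone is not particular to these genes.

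The absence of acetylation at neuronal effectors has to be read beside what the acetylation lists hold of neurons. A list of 12 genes that DRG neurons express, such as Nefl, Isl1, Scn10a and Stmn2, was open at the start in 11 cases in Sham and in 12 in each other list. These genes had an H3K9ac start-site peak in only 1, 2, 2 and 3 cases (in the order Sham, SNA, Lam, DCA) and an H3K27ac one in 2, 4, 3 and 3. Not all were alike: Tubb3 had both acetylation marks at the start in all 4 surgeries, and Uchl1 and Prph had each mark in some. The 4 genes named above were among those with few or none. H3K27me3 start-site peaks were listed for 9, 7, 9 and 3 of them, with Nefl and Isl1 listed in all 4 surgeries. By contrast 8 genes of satellite glia and Schwann cells, such as Sox10 and Fabp7, had H3K9ac at the start in 7, 8, 8 and 8 cases and H3K27ac in 7, 7, 8 and 5. Macrophage genes such as Csf1r and Aif1 had H3K27ac at the start in 0 of 10 cases in every list. Expressed neuronal genes thus mostly lacked acetylation peaks too, and often had H3K27me3 peaks. The part of cell mixture in the state of Sprr1a, Csrp3, Ankrd1 and Ecel1 was not tested.

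**Figure D3:**
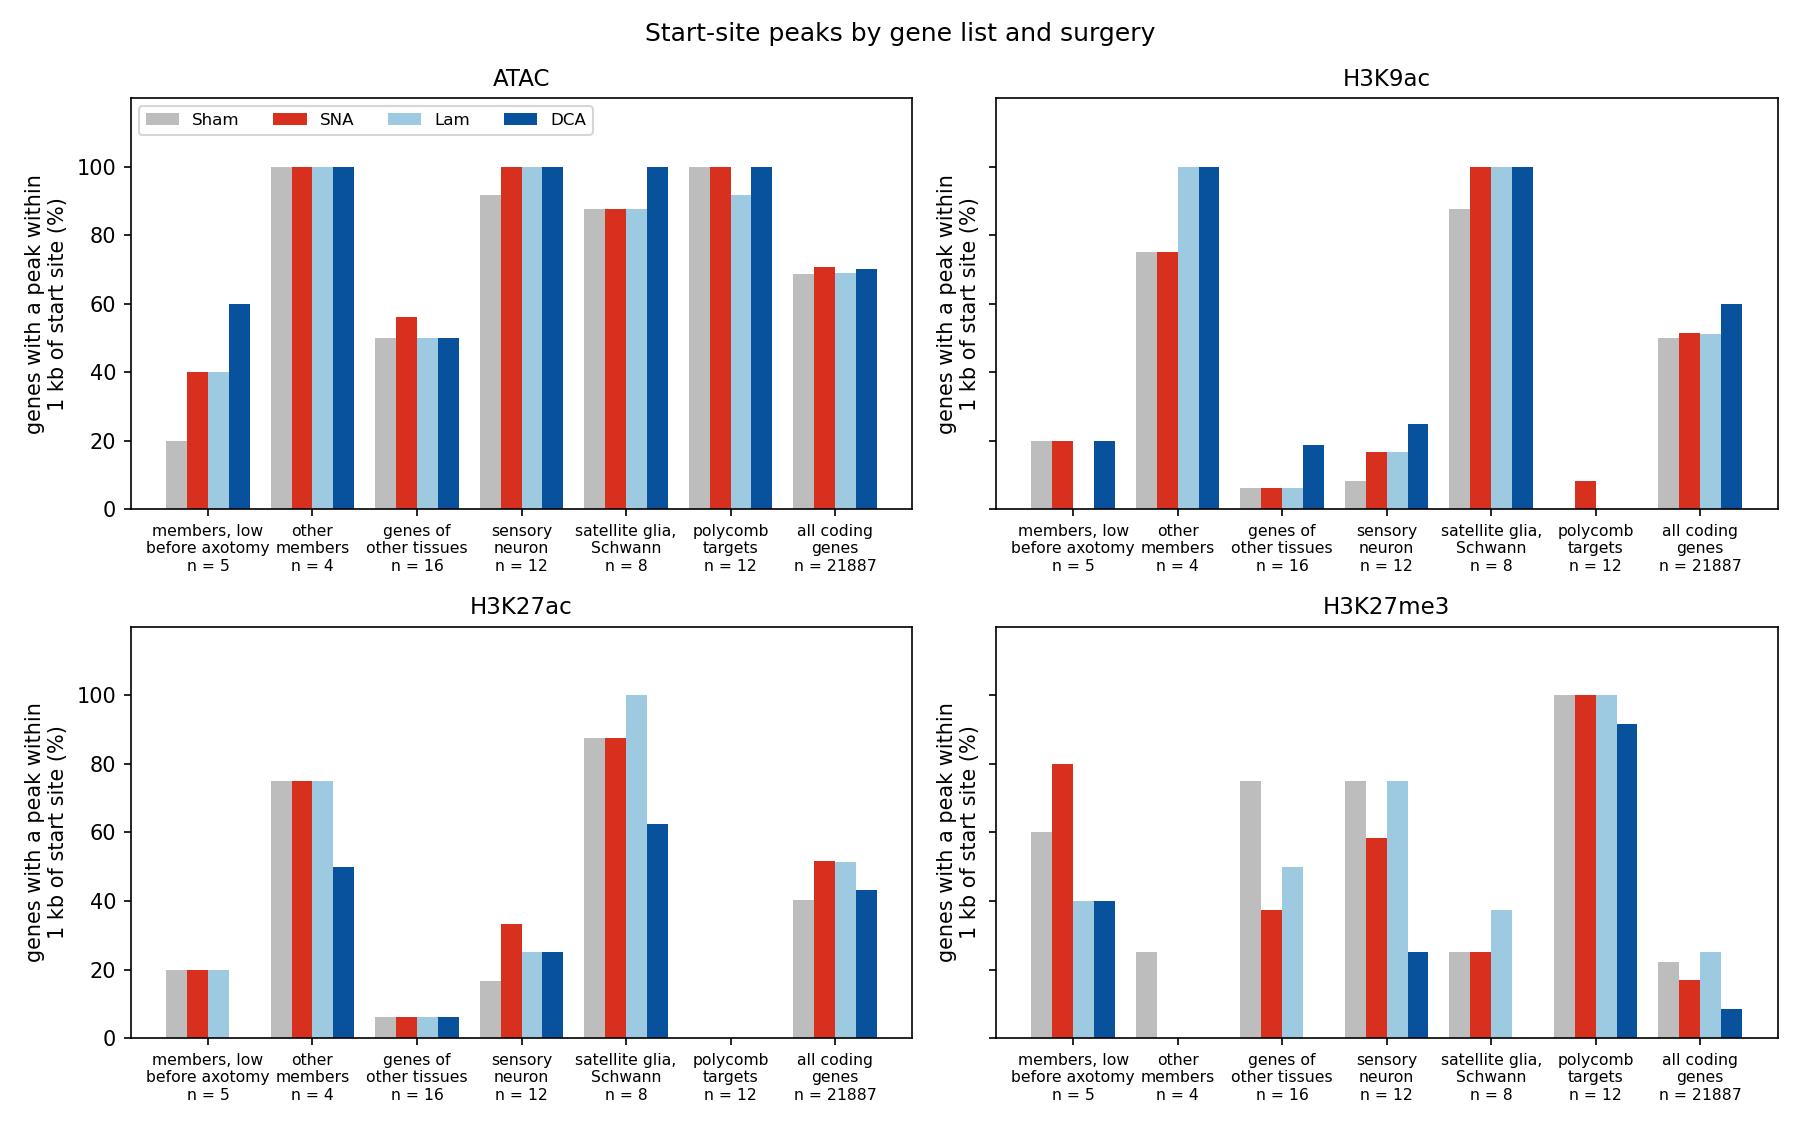
Percent of the genes in each list with a start-site peak, by assay (panels) and surgery (bar colours), each bar from 1 pooled peak list. Sensory neuron genes reach 91.7% to 100.0% for ATAC but at most 33.3% for either acetylation mark, and Polycomb targets reach at least 91.7% for H3K27me3.

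Gadd45a, a growth arrest and DNA damage protein with very low RNA in the resting ganglion, did not share the state of the other low genes. A single ATAC peak covered its start in every surgery (chr6:67036440-67037750 in Sham). Its −log10 p was 86.5 in Sham and 118.0 in SNA, and 71.4 in Lam and 76.2 in DCA, within the strongest 0.416%, 0.312%, 0.671% and 0.638% of each list. Fold enrichment was 7.32, 7.72, 6.73 and 6.47, the strongest ATAC listing of any member. H3K9ac met the start in Sham, SNA and DCA (2.63% of genes had exactly this pattern), with its strongest peak in DCA (chr6:67036460-67037322, −log10 p 11.7), and the Lam peak lay just outside the limit, 1121 bp from the start. H3K27ac met it in Sham, SNA and Lam (4.01% of genes). H3K27me3 was limited to 1 small peak each in SNA and Lam, both away from the start, the stronger in Lam (chr6:67030897-67031314). The start overlaps the long noncoding gene E230016M11Rik, so a peak there belongs to both.

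One strong H3K27ac site by Gadd45a lay outside open chromatin. It was 8.2 kb past the start (chr6:67029007-67029452 in Sham, fold 8.95), listed in Sham, Lam and DCA, and overlapped no ATAC peak. Cebpb had a site of the same kind 10.0 kb past its start (chr2:167698707-167699197 in Sham, fold 9.27). Among the 5000 strongest peaks of each H3K27ac list, SNA was the list that stood apart. The strongest Sham, Lam and DCA peaks were found in each other's lists at shares of 90.5% to 97.3%. An SNA peak met only 58.1% of the strongest Lam peaks and 33.0% of the strongest DCA peaks. The strongest SNA peaks were mostly listed elsewhere too, 98.0% of them in Lam and 90.2% in DCA. Of the 5000 strongest Sham peaks 18.2% overlapped an SNA peak and 22.1% an ATAC peak of Sham, whereas of the 5000 strongest SNA peaks 85.8% overlapped a Sham peak and 88.3% an ATAC peak of SNA. Both sites are absent from SNA, and the part of this difference between the lists in their absence was not tested.

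Anxa2, a calcium-dependent membrane-binding protein that pairs with S100a10, had the most acetylation peaks of the members. Its start was open and carried both acetylation marks in all 4 surgeries. The ATAC peak over it had a −log10 p of 14.9 in Sham and 27.5 in SNA, and 24.3 in Lam and 42.7 in DCA, the last at chr9:69453088-69454162. The window held 10, 12, 14 and 14 ATAC peaks for Sham, SNA, Lam and DCA. H3K9ac numbered 13, 21, 13 and 19 peaks, higher after each axotomy than after its control. H3K27ac numbered 12, 19, 18 and 14, which was higher in SNA than in Sham and lower in DCA than in Lam. Acetylated sites ran through the first part of the 38110 bp gene, and open sites 15.6 and 23.8 kb past the start recurred in all 4 surgeries with acetylation. The strongest H3K9ac peak was at the start in DCA (chr9:69453618-69455905, fold 5.61, −log10 p 25.2) and the strongest H3K27ac peak at the start in Lam (chr9:69453497-69454941, fold 8.56, −log10 p 28.0). H3K27me3 covered 5.07% of the window in Sham and 0.833% in SNA, and 5.38% in Lam and 0.0% in DCA, never at the start, the strongest at chr9:69487661-69487834 in Sham.

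The 3 bZIP transcription factors were open at the start in every surgery. Nfil3, a repressor induced by injury and by cytokines, had an ATAC start-site peak with a −log10 p of 32.4 in Sham and 39.8 in SNA (chr13:52980257-52981599), and 33.3 in Lam and 35.7 in DCA. H3K9ac met the start in all 4 surgeries, and H3K27ac in SNA and Lam only (4.02% of genes). A second open site 2.4 kb into Nfil3 (chr13:52978342-52978847) was listed in SNA, Lam and DCA and not in Sham, a pattern held by 3.18% of all ATAC regions. In DCA it also carried the gene's strongest H3K9ac peak (chr13:52978297-52978962, fold 4.21, −log10 p 10.9). The strongest H3K27ac peak was at the start in SNA (chr13:52981322-52981688, −log10 p 9.23). In Sham, SNA and Lam, Nfil3 also had more of its window under H3K27me3 than the other open members, with 12.7%, 13.2% and 21.3%. In DCA the share was 2.4% for Nfil3 and 7.39% for Cebpd. Nfil3 had its strongest H3K27me3 peak at chr13:52985823-52985987 in SNA. It was the one open member with a start-site H3K27me3 peak, in Sham alone (chr13:52978387-52980415, its edge 624 bp from the start), as for 6.06% of genes.

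Cebpd, an acute-phase C/EBP factor, was open and doubly acetylated in all 4 surgeries. Its main ATAC peak had a −log10 p of 35.7 in Sham and 55.1 in SNA (chr16:15886667-15888225), and 43.6 in Lam and 48.3 in DCA. H3K9ac numbered 5, 3, 4 and 6 peaks for Sham, SNA, Lam and DCA, and H3K27ac 1, 5, 2 and 2. The highest H3K27ac number was that of SNA, where the mark was listed in several pieces across the gene and the strongest piece (chr16:15887877-15889427) had a fold of 8.22 and a −log10 p of 19.9. The strongest H3K9ac peak was in DCA (chr16:15887265-15888357, −log10 p 24.3). H3K27me3 was absent in Sham and gave 1 peak each in SNA, Lam and DCA, none within 1 kb of the gene, the strongest at chr16:15876912-15877450 in Lam. The coding gene Spidr overlaps this window.

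Cebpb, a C/EBP factor of inflammation and regeneration, had a weaker open start than Cebpd in each list. Its ATAC start-site peak had a −log10 p of 9.21 in Sham and 19.6 in SNA (chr2:167687721-167689753), and 9.8 in Lam and 15.6 in DCA. H3K9ac was listed at the start in Lam and DCA (2.08% of genes) and H3K27ac in Sham alone (0.594%). H3K9ac numbered 2 peaks in Sham and 3 in SNA, and 1 in Lam and 9 in DCA, the widest gap of any member between DCA and Lam. The DCA peaks ran from 1.6 kb before to 10.9 kb past the start, with the strongest over it (chr2:167688704-167690091, fold 4.01, −log10 p 14.7). The DCA H3K9ac list is also the largest of its assay, with 89647 peaks against 50332 in Sham, 74652 in SNA and 50667 in Lam. An open site 5.6 kb past the start was listed in SNA, Lam and DCA, and another at 7.6 kb (chr2:167696096-167697015) in SNA and DCA only, as were 4.26% of all ATAC regions. H3K9ac overlapped that site in Sham, SNA and DCA. Both lie within the noncoding gene A530013C23Rik. One H3K27me3 peak was listed, in Lam (chr2:167695287-167695619).

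**Figure D4:**
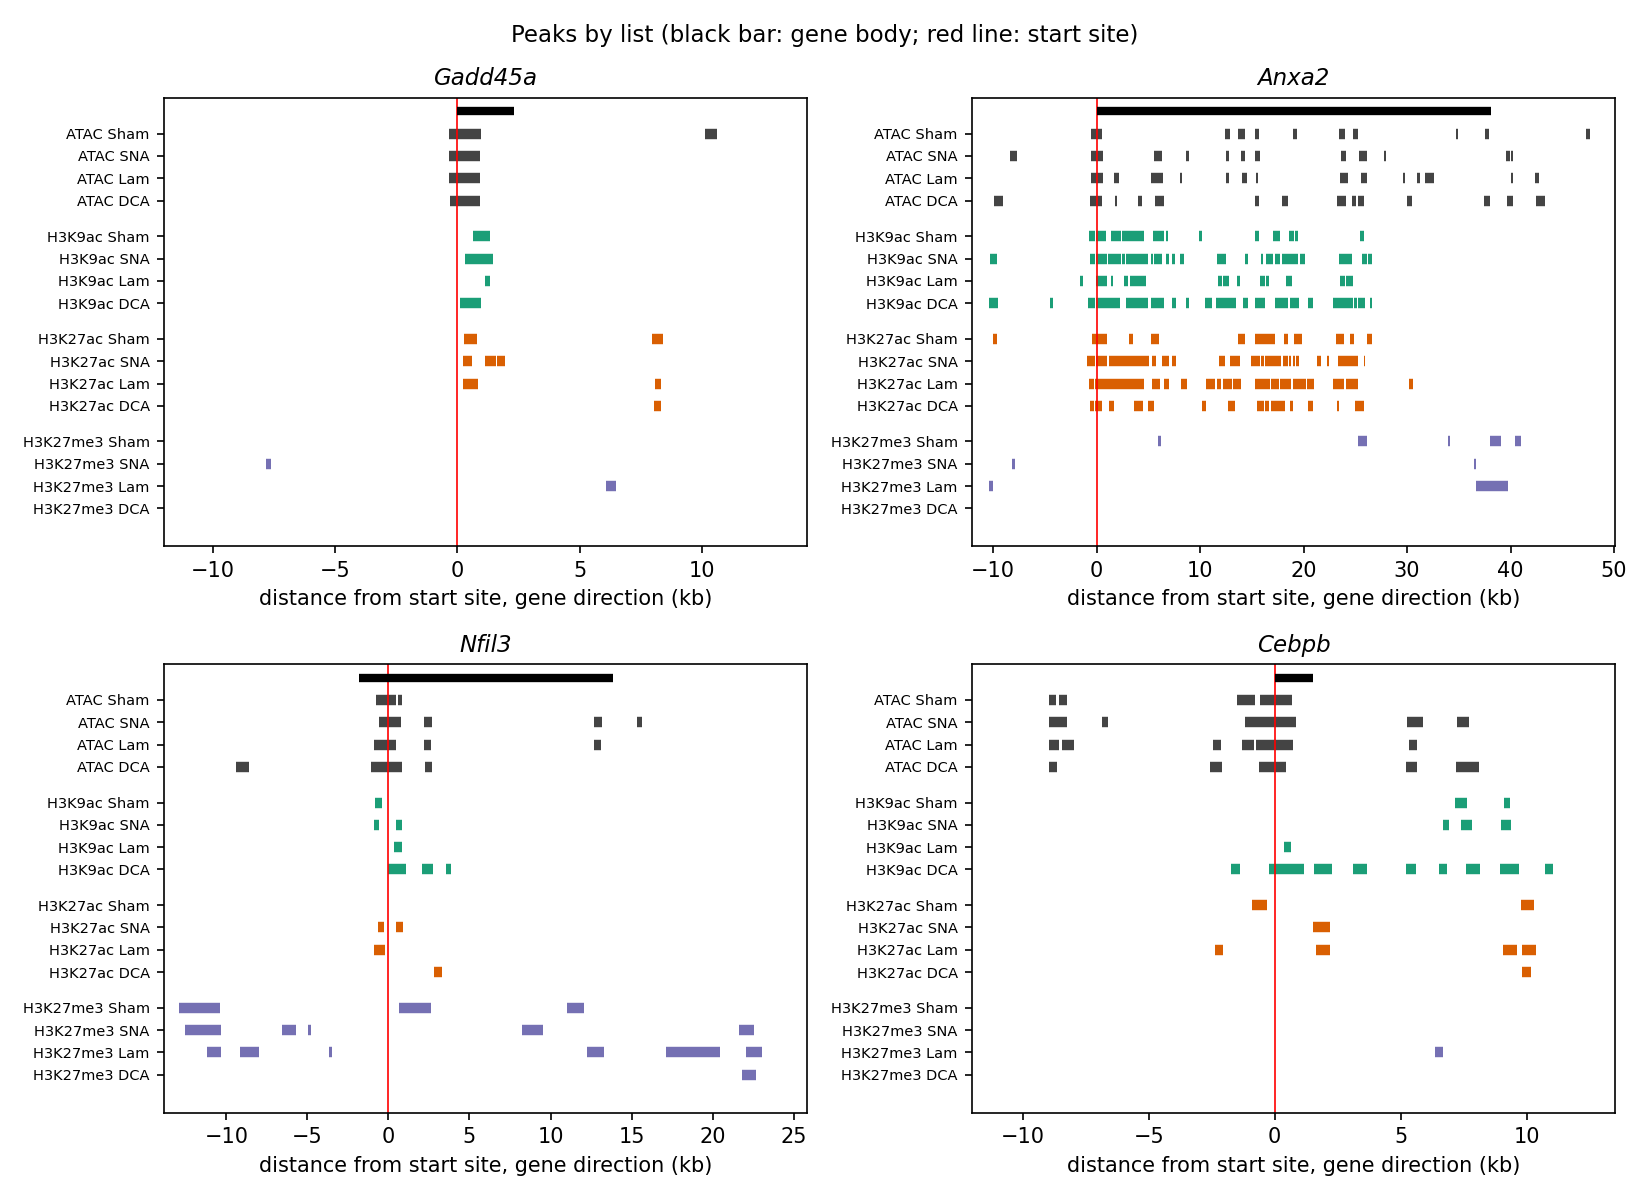
Peaks of Gadd45a, Anxa2, Nfil3 and Cebpb by distance from the start site in kb, drawn as for the other members, with a black bar for the gene body and a red line for the start. ATAC peaks cover the start in all 16 rows of that assay over the 4 genes, 9 H3K9ac peaks spread over the Cebpb window in DCA, and no H3K27me3 peak covers a start.

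Summed over the 9 genes, the differences in peak number between surgeries moved with the size of the lists and the limits set on them. ATAC gave 33 peaks in Sham and 34 in SNA, and 41 in Lam and 39 in DCA. The difference was 1 for SNA minus Sham and -2 for DCA minus Lam, both smaller than the 8 between the control operations Lam and Sham. With only peaks of q at most 0.05, SNA minus Sham and Lam minus Sham were both 9. More ATAC peaks in SNA than in Sham were listed for 5 of 9 members, against 46.8% of all genes, and more in DCA than in Lam for 2 of 9, against 35.1%. These shares are near the background. H3K9ac gave 22, 30, 20 and 39 peaks, with more in SNA than Sham for 3 of 9 (38.9% of genes) and more in DCA than Lam for 5 of 9 (47.6%). H3K27ac gave 17, 30, 27 and 19, with more in SNA than Sham for 4 of 9 (43.9%) and more in DCA than Lam for 0 of 9 (12.1%). With lists cut to equal size the H3K9ac difference went from 8 to 1 for SNA minus Sham and from 19 to 3 for DCA minus Lam. The H3K27ac difference went to 0 for both SNA minus Sham (from 13) and Lam minus Sham (from 10), and from -8 to 1 for DCA minus Lam. H3K27me3 gave 21, 22, 26 and 10, with fewer in DCA than Lam for 7 of 9 (61.5%), and DCA minus Lam went from -16 to -8 with equal list sizes. Joined across surgeries, the ATAC peaks of the windows formed 73 regions, in which a chain of overlaps can unite peaks that do not overlap each other, of which 15.1% were listed in all 4 surgeries (10.0% of all 368411 regions) and 2.74% in SNA and DCA only (4.26%).

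Relatives of the members were read in the same way. Csrp1 and Csrp2, close relatives of Csrp3, were open and carried both acetylation marks at the start in all 4 surgeries. Ece1, a relative of Ecel1, had the same state, and Ece2 and Mme were open in all 4. Ankrd2, a muscle ankyrin repeat protein like Ankrd1, was open in all 4 as well, and Ankrd23 was acetylated in all 4. In the epidermal cluster around Sprr1a, Sprr1b and Sprr3 had no ATAC, H3K9ac or H3K27ac peak at the start in any list, like Sprr1a, while Lor was open in all 4 without acetylation and Ivl was open in Sham and SNA only, also without it. Gadd45b and Gadd45g shared the open start of Gadd45a. Anxa1 differed from Anxa2 in having no ATAC start-site peak, and Cebpe, unlike Cebpb and Cebpd, was not open in Sham. Of the 25 relatives, which include those of open members, 19 had an ATAC start-site peak in all 4 lists and 3 in none, against 62.1% and 22.9% of all genes. Of the 11 relatives of Sprr1a, Csrp3, Ankrd1 and Ecel1 it was 7 in all 4 lists and 2 in none, and these shares are near the background.

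Start-site peaks and CG number ran together over the members, with exceptions. Of the 12 ATAC, H3K9ac and H3K27ac lists, a start-site peak was found in 0 for Sprr1a and Ankrd1, 2 for Csrp3 and Ecel1, 7 for Cebpb, 10 for Gadd45a and Nfil3, and 12 for Anxa2 and Cebpd. All genes with 0 to 4 CG in the 250 bases had a median of 0 of these lists, those with 5 to 9 had 7, and those with 10 to 14 had 11. Sprr1a and Ecel1 lay within the middle range of genes of their CG number, which ran from 0 to 3. Ankrd1 and Csrp3 lay below the range of 3 to 11 in theirs, Anxa2 lay above it, and Cebpb lay below the range of 9 to 12 of the genes with 25 or more. Csrp3 was placed by the 5 CG of its upstream start, while its lists count peaks at either start. By the 2 CG of its downstream start it would lie within the range of 0 to 3. These are descriptions over genes that share the same lists.

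**Figure D5:**
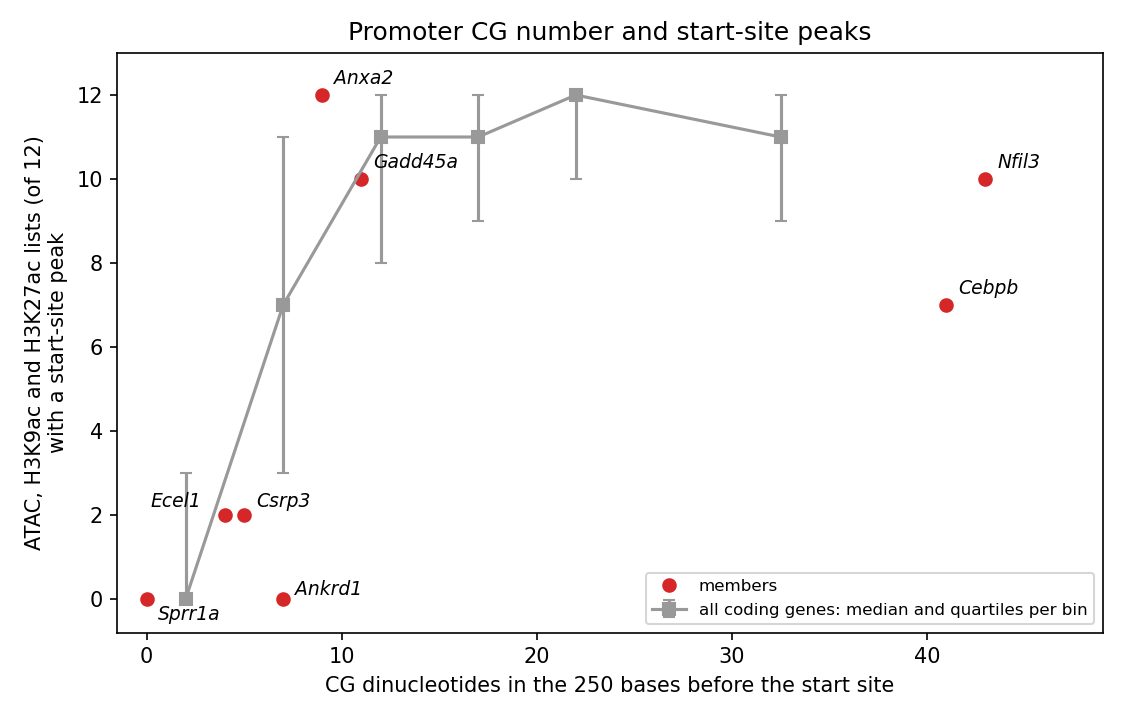
Number of ATAC, H3K9ac and H3K27ac lists (of 12) with a start-site peak against the number of CG dinucleotides in the 250 bases before the start, for the 8 members with a promoter entry (red points). Grey squares with bars give the median and quartiles of all genes by CG number, which go from 0 in the lowest bin to 11 or 12 from 10 CG upward. Csrp3 is drawn at its upstream start.

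The genes whose 16 peak numbers were most like a member's were found by Pearson's r on log2(peaks + 1) over the lists, among all genes with at least 10 peaks. They were Bhmt2 for Csrp3 (r = 0.99), Fez1 for Gadd45a (0.855), Epas1 for Anxa2 (0.977), Zfp541 for Nfil3 (0.911), Ofd1 for Cebpd (0.907) and Cep131 for Cebpb (0.966). For Ecel1, 2 genes tied at 0.992. Sprr1a, with 9 peaks in all, was too sparse for the measure. The 16 values share 4 assays of unlike list sizes, and no p is given.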

How the data were processed

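The authors deposited 1 peak list per assay and surgery, pooled over replicates per the labels' titles and protocols; the build is mm10 per the submitters' processing notes, and aligner, caller and settings are not given in the sources used here. The 24 ChIP, 24 input and 12 ATAC samples were grouped by their labels. In the deposited lists each peak has an integer display score (unused), a linear fold ratio over background, a −log10 p and a −log10 q value, all of which describe peaks within a list only. Repeated summit lines of the ATAC lists were collapsed to 1 peak each. Peaks overlapping a gene body and 10 kb on either side by at least 1 bp were counted with Python 3.11.15, numpy 2.4.6 and pandas 2.3.3, and checked on simulated peaks. RefSeq coordinates (GRCm38.p6) came from the reference tables: 79.9% of genes had an annotated start site, either gene end was used for the rest, and 8 of 9 members had a promoter sequence. No test was run, because each group is 1 list. All 9 genes are named, by role, with the strongest peak of each assay; a relative is named where its start-site state differs (applied to ATAC; Sprr1b, Sprr3, Gadd45b and Gadd45g, without such a difference, were also named after their values were seen). The members and all gene lists were chosen with earlier results of these data known. Alternatives were q limits, equal list sizes and other distances. Some items, among them 2 glial markers of the list first drawn up, are not reported here.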

Additional observations from a re-analysis of the deposited data

How the results depend on the processing

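No paired analysis was possible because each list pools its replicates, and for the same reason no replicate could be left out. Of 36 recomputed values of the 4 start-site counts and the 2 ATAC differences, 21 stayed within 1.5 times the reported one. The ATAC count of 5 members open in all 4 lists was 7 within 5 kb of the start and 5 under the other settings. The H3K9ac count of 3 became 0 at −log10 q of at least 5 and 1 with the start inside the peak, which also took the H3K27ac count from 2 to 1. The H3K27me3 count of 1 became 0 at q of at most 0.05, at −log10 q of at least 5 and with equal list sizes, and 2 within 5 kb. SNA minus Sham in ATAC peaks was 9 at q of at most 0.05, -1 with equal list sizes, 6 with 25 kb on either side and 3 with every summit line counted. DCA minus Lam was 3 at q of at most 0.05, 1 at −log10 q of at least 5, -4 with 25 kb and 0 with every summit line, so neither difference has a stable sign. Lam minus Sham in H3K9ac turned from -2 to 5, 3 and 2 under the q limits of 0.05 and of −log10 5 and over the gene body alone, and DCA minus Lam in H3K27ac from -8 to 1 with equal list sizes. Over the gene body alone, H3K27me3 turned to -1 for SNA minus Sham and -4 for Lam minus Sham. Measuring 1 kb from either gene end, an alternative chosen after seeing the data, left that count at 5 but put Ecel1 in through its 3′ site and took Nfil3 out. The cause of these shifts was not tested. Depth per list is unknown.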
